A study of Mus musculus with 9 samples.

Results

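Sterol and fatty acid synthesis was followed through 31 genes chosen by name: the regulators of the SREBP transcription factors, the enzymes from acetyl-CoA to cholesterol, a sterol carrier, and the enzymes that make, lengthen and desaturate fatty acids. All 31 were among the 24341 genes of the deposited tables, and all 31 passed the filter on low counts in every comparison. RNA-Seq was performed on 9 samples of mouse embryonic fibroblasts (MEFs, cells grown out of minced embryos) of strain C57BL/6 kept in DMEM with FBS, 3 of genotype WT, 3 *Atm-/-* and 3 *Sirt6-/-*. The labels name WT, *Sirt6-/-*, *P53-/-* and *Atm-/-P53-/-* mice as donors of the cells without tying a donor to a sample, and the study's methods list immortalized *Atm-/-; p53-/-* MEFs from one laboratory and *Sirt6-/-* MEFs from another. The age of the embryos and the number of independent lines are not given in the sources used here. The effects of the named deletion, of *p53* status and of the cell line therefore cannot be told apart, and since nothing says that the 3 samples of a genotype came from separate cultures or embryos, p-values measure only the spread between these samples.

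Cholesterol and saturated and monounsaturated fatty acids are built from cytosolic acetyl-CoA by enzymes whose genes are largely switched on by SREBP-1 (*Srebf1*) and SREBP-2 (*Srebf2*). These factors are made as membrane proteins of the endoplasmic reticulum, where SCAP escorts them to the Golgi for cleavage when sterols are low and the INSIG proteins hold SCAP back when sterols are plentiful. SREBP-2 is best known for the cholesterol genes and SREBP-1c for the lipogenic ones, and *Insig1* is itself an SREBP target. In cultured fibroblasts the route supplies membranes and depends on how much sterol the serum delivers.

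Samples held 32187040 to 33837949 counted reads, so that 3 counts corresponded to 0.0887 to 0.0932 CPM (read counts scaled to a common library size, with TMM factors in the values per sample below). WT replicate 2 stood apart: its chi-square per gene against the other WT samples was 15.1 and 16.4, whereas all other pairs within a genotype had 5.24 to 6.88. Calls of the 31 genes that changed without WT replicate 2 are therefore given with both values. For marker genes and other pathway genes, values without it are not reported here. *Sirt6* had 402 to 487 counts in WT and 4 to 7 in *Sirt6-/-*. *Atm* had 1536 to 1627 counts in WT and 3443 to 3768 in *Atm-/-*, higher in the samples labelled as its knockout, and counts per gene do not show which exons were read. *Trp53*, which encodes p53, had 6563 to 7108 counts in WT and 806 to 946 in *Atm-/-* (log2 fold change -3.09 ± 0.067 (SE), edgeR adjusted p = 2.99e-14). In *Sirt6-/-*, *Trp53* had 9081 to 9218 counts (log2 fold change 0.35 ± 0.046 (SE), edgeR adjusted p = 7.93e-06). Of 11 fibroblast markers, 9, 9 and 8 had a mean of at least 1 CPM in WT, *Atm-/-* and *Sirt6-/-*. Their summed level was 19520 to 22988 CPM, 5809 to 5938 CPM and 15845 to 16393 CPM, with *Fap* at 0 counts in WT and *Lum* at 0 in *Atm-/-*. Against WT, 2 of 10 tested were called higher and 8 lower in *Atm-/-* (all genes: 34.7% and 33.6%). In *Sirt6-/-*, 3 of 9 were higher and 6 lower (all genes: 39.2% and 37.4%). Mean *Col1a1* was 2377 CPM in *Sirt6-/-* against 8667 in WT, and *Thy1* 0.470 against 24.4, while *Col1a2* was 7805 against 4730. The 5 epithelial markers summed to 20.3 to 23.5 CPM in WT, 86.3 to 93.4 in *Atm-/-* and 18.4 to 21.3 in *Sirt6-/-*, and the hepatocyte, endothelial, blood and skeletal muscle lists reached no more than 12.5 CPM in any sample. Of the 5 epithelial markers, 3 were called higher in *Atm-/-* than in WT (all genes: 34.7%), and *Epcam* and *Krt8* were not called. Mean *Krt19* was 46.0 CPM in *Atm-/-* against 2.14 in WT, and *Krt18* 28.2 against 7.21. The part of these marker differences in the results was not tested, and in such bulk samples fewer cells of a type and less RNA per cell cannot be told apart.

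Nearly the whole route had more mRNA in *Sirt6-/-* MEFs than in WT. In *Sirt6-/-* MEFs, 28 of 31 genes were upregulated compared with WT, 1 (*Scap*) was downregulated, and *Srebf1* and *Ebp* did not pass the test (edgeR quasi-likelihood test, adjusted p under 0.05). Of all 13206 genes tested, 76.6% were called in this comparison, 39.2% higher and 37.4% lower. At least 2-fold higher were 16 of the 31, against 17.5% of all genes, and 0 were at least 2-fold lower, against 11.8%. The median log2 fold change of the 31 genes was 1.04, beside 0.024 for all genes tested.

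In *Atm-/-* MEFs the same genes moved less and in both directions. Compared with WT, 16 of 31 were upregulated, 4 (*Scap*, *Insig2*, *Hsd17b7* and *Sc5d*) were downregulated and 11 did not pass the test. Of 13283 genes tested, 68.4% were called, 34.7% higher and 33.6% lower. At least 2-fold higher were 2, *Tm7sf2* and *Nsdhl*, against 12.6% of all genes, and 0 were at least 2-fold lower, against 9.85%. The median log2 fold change was 0.12, beside 0.015 for all genes, and the median absolute log2 fold change was 0.25, below the 0.40 of all genes. This balance depended on scaling. With library totals in place of TMM factors, the median of all genes moved by 0.16 on the log2 scale, the 31 genes split into 22 higher and 2 lower, and all genes into 6156 higher and 3326 lower in place of 4611 and 4469. *Hmgcs1*, *Fdft1*, *Stard4*, *Scd1*, *Fads1* and *Fads2*, described below as not passing the test in *Atm-/-*, then passed it as higher. Without WT replicate 2 the downregulated genes numbered 6 in place of 4. Both comparisons share the 3 WT samples, so calls in the same direction in both are not independent of each other. Such joint calls are named below as descriptions, and their overlap was not tested.

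**Figure D1:**
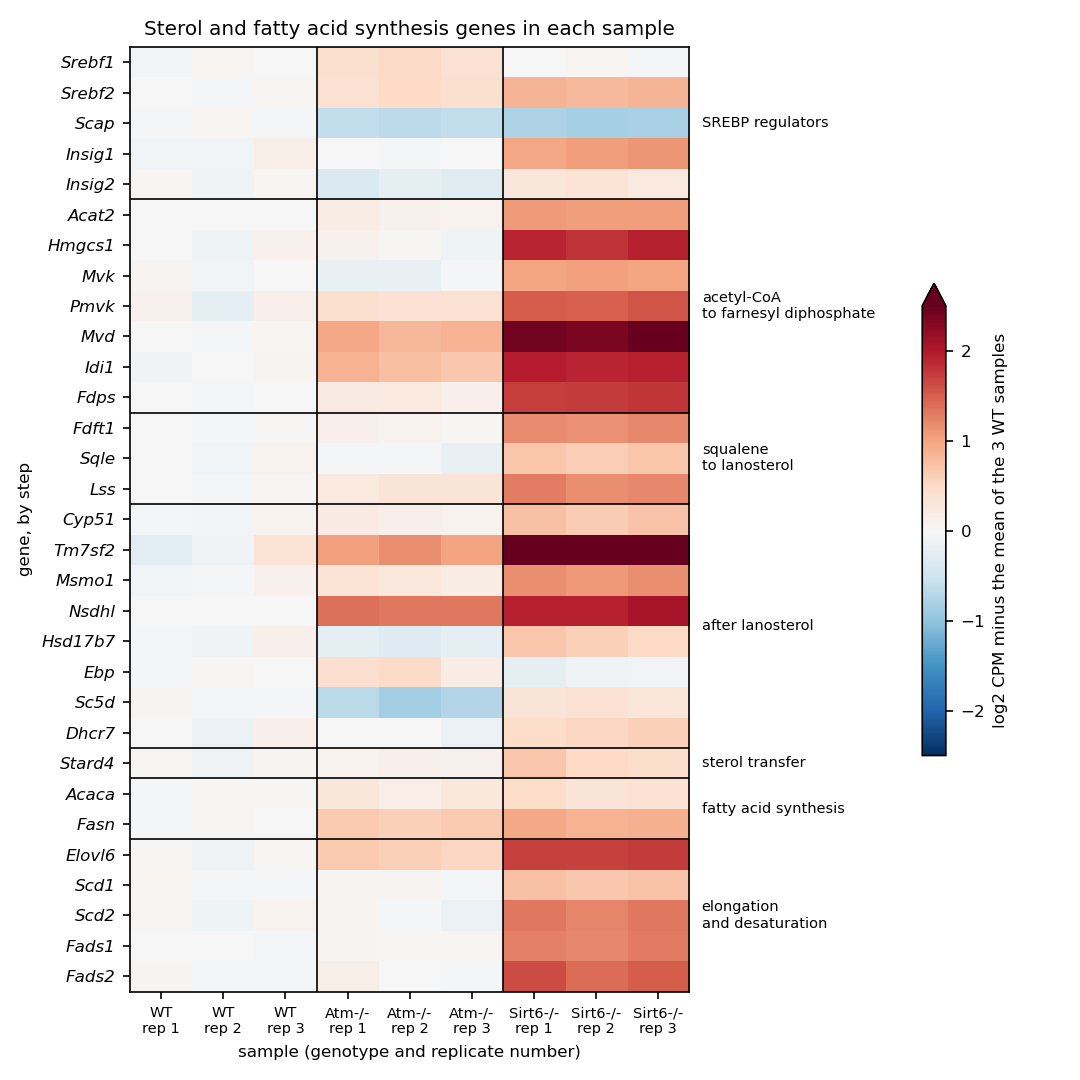
Heatmap of the 31 genes (rows, by step of the route) in the 9 samples (columns). Colour gives log2 CPM minus the mean of the 3 WT samples, with values above the end of the scale in the darkest red. The *Sirt6-/-* columns are red for nearly all rows, darkest for *Tm7sf2* and *Mvd*, *Scap* is blue in both knockouts, and the *Atm-/-* columns hold both colours.

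**Figure D2:**
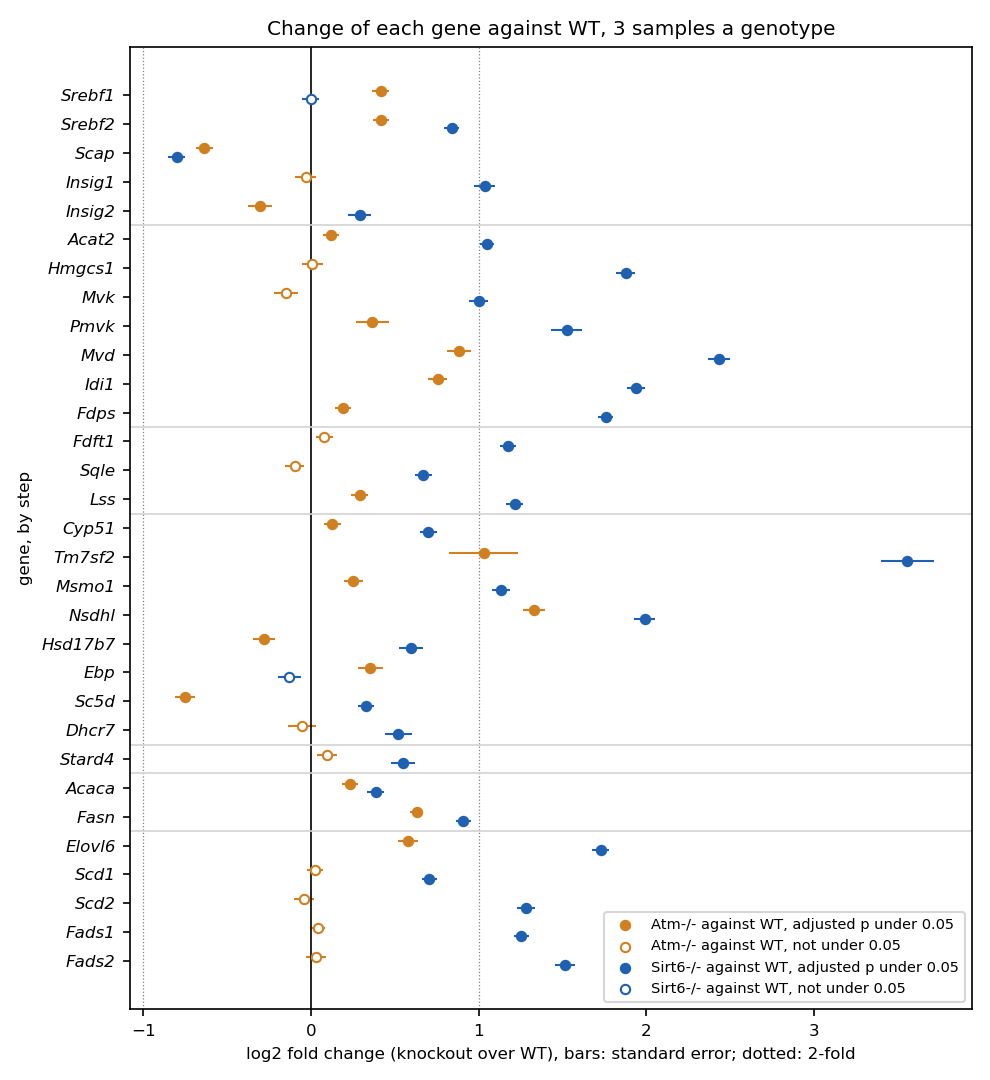
Log2 fold change of each gene against WT in *Atm-/-* (orange) and *Sirt6-/-* (blue) MEFs, 3 samples a genotype, with the standard error as a bar, filled points for adjusted p under 0.05 and dotted lines at 2-fold. The blue point lies to the right of the orange one for 28 of 31 genes, the exceptions being *Srebf1*, *Scap* and *Ebp*.

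The regulators did not move as one. *Srebf2*, the cholesterol regulator, was upregulated in both knockouts, with 248 ± 9.17 CPM (mean ± SD, n = 3 throughout) in WT, 334 ± 15.7 in *Atm-/-* and 444 ± 8.95 in *Sirt6-/-* (log2 fold changes 0.42 ± 0.048 and 0.84 ± 0.045, SE). *Srebf1* was upregulated in *Atm-/-* alone, from 98.0 ± 4.06 to 131 ± 5.29 CPM (log2 fold change 0.42 ± 0.051 (SE), edgeR adjusted p = 5.07e-06), and stood at 97.7 ± 2.64 CPM in *Sirt6-/-* (log2 fold change -0.0023 ± 0.052 (SE), edgeR adjusted p = 0.970). The difference between the knockouts passed the test of its own (log2 fold change -0.43 ± 0.046 (SE), edgeR adjusted p = 3.60e-08). Gene counts do not separate the SREBP-1a and SREBP-1c transcripts.

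*Scap*, the escort protein, was the one gene of the 31 downregulated in both knockouts, from 126 ± 3.95 CPM in WT to 81.7 ± 0.963 in *Atm-/-* and 72.5 ± 1.69 in *Sirt6-/-* (log2 fold changes -0.64 ± 0.049 and -0.80 ± 0.050, SE). Its exons overlap a transcript of unknown standing on the other strand over 13.2% of their length, and whether counting used strand is not given in the sources used here. The INSIG pair behaved differently from each other. *Insig1*, the sterol-responsive retention protein, had 71.7, 72.1 and 83.1 CPM in WT, 75.1, 73.0 and 75.0 in *Atm-/-* and 147, 157 and 161 in *Sirt6-/-*. Every *Sirt6-/-* sample lay above every WT sample (log2 fold change 1.04 ± 0.063 (SE), edgeR adjusted p = 1.15e-09), while *Atm-/-* and WT overlapped (log2 fold change -0.032 ± 0.063 (SE), edgeR adjusted p = 0.667). *Insig2* had 38.5, 35.0 and 38.4 CPM in WT, 29.0, 31.9 and 30.1 in *Atm-/-* and 45.3, 47.3 and 44.1 in *Sirt6-/-*. It was called in opposite directions, lower in *Atm-/-* (log2 fold change -0.30 ± 0.073 (SE), edgeR adjusted p = 0.00192) and higher in *Sirt6-/-* (log2 fold change 0.29 ± 0.067 (SE), edgeR adjusted p = 0.00121), with no overlap among the 3 genotypes, and the *Atm-/-* call was lost with library totals (log2 fold change -0.14, edgeR adjusted p = 0.101).

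The step with the highest median rise in *Sirt6-/-* was the stretch from acetyl-CoA to farnesyl diphosphate, the branch point for sterols, ubiquinone and protein prenylation. All 7 genes were upregulated, 6 at least 2-fold, with a median log2 fold change of 1.76. In *Atm-/-*, 5 were upregulated, none 2-fold, and *Hmgcs1* and *Mvk* did not pass the test. *Mvd* (GRCm38 chr8:122433601-122443422, minus strand), which decarboxylates mevalonate diphosphate to isopentenyl diphosphate, had 22.7, 21.9 and 23.6 CPM in WT, 44.3, 40.3 and 41.7 in *Atm-/-* and 122, 116 and 131 in *Sirt6-/-*. The genotypes formed 3 separate levels, 1.84-fold above WT in *Atm-/-* (log2 fold change 0.88 ± 0.073 (SE), edgeR adjusted p = 6.50e-08) and 5.40-fold in *Sirt6-/-* (log2 fold change 2.43 ± 0.065 (SE), edgeR adjusted p = 9.94e-14).

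*Idi1*, the isomerase that follows, had 109.7, 118 and 123 CPM in WT, 212, 196 and 186 in *Atm-/-* and 455, 439 and 450.0 in *Sirt6-/-*. It had the same 3 levels, with log2 fold changes of 0.75 ± 0.058 and 1.94 ± 0.051 (SE). *Pmvk*, phosphomevalonate kinase, had 20.4, 16.0 and 20.8 CPM in WT, 25.1, 24.4 and 24.8 in *Atm-/-* and 54.5, 53.6 and 56.7 in *Sirt6-/-*, log2 fold changes of 0.37 ± 0.10 (edgeR adjusted p = 0.00479) and 1.52 ± 0.090 (edgeR adjusted p = 9.22e-10). The lowest WT value of *Pmvk* was that of WT replicate 2.

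*Hmgcs1* (GRCm38 chr13:119690379-119708260, plus strand), the synthase that condenses acetoacetyl-CoA with acetyl-CoA, had 157, 146 and 168 CPM in WT, 169, 161 and 146 in *Atm-/-* and 583, 548 and 597 in *Sirt6-/-*. It was 3.67-fold higher in *Sirt6-/-* (log2 fold change 1.88 ± 0.057 (SE), edgeR adjusted p = 3.95e-13), whereas the *Atm-/-* samples overlapped WT (log2 fold change 0.0061 ± 0.062 (SE), edgeR adjusted p = 0.936). An antisense gene overlaps 12.1% of its exon length. *Fdps*, which makes farnesyl diphosphate, had 116, 114 and 117 CPM in WT, 135, 136 and 126 in *Atm-/-* and 384, 387 and 402 in *Sirt6-/-*. The *Atm-/-* samples lay just above WT (log2 fold change 0.19 ± 0.048, SE) and the *Sirt6-/-* samples far above both (1.76 ± 0.045).

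*Acat2*, the thiolase that makes acetoacetyl-CoA, had 120.2, 119 and 117 CPM in WT, 136, 127 and 126 in *Atm-/-* and 247, 245 and 245 in *Sirt6-/-*. The *Sirt6-/-* samples lay close together and above all others (log2 fold change 1.05 ± 0.043 (SE), edgeR adjusted p = 1.44e-11), and the small *Atm-/-* difference (log2 fold change 0.12 ± 0.048 (SE), edgeR adjusted p = 0.0408) was lost without any 1 of WT replicates 1, 2 and 3 or *Atm-/-* replicate 1, with edgeR adjusted p values of 0.053 to 0.135. *Mvk*, mevalonate kinase, stood at 40.8 ± 2.03 CPM in WT, 37.0 ± 1.96 in *Atm-/-* and 81.5 ± 1.31 in *Sirt6-/-*, just short of 2-fold higher in *Sirt6-/-* (log2 fold change 1.0 ± 0.059 (SE), edgeR adjusted p = 9.19e-10). Its *Atm-/-* value (log2 fold change -0.15 ± 0.070 (SE), edgeR adjusted p = 0.0748) became a call for lower without WT replicate 2 (log2 fold change -0.18, edgeR adjusted p = 0.0387). Some of these genes share sequence with other genes, and counting could split such reads: of all 50-base stretches of their transcripts, 39.1% were shared with another gene for *Acat2* (mostly *Acat3*), 26.2% for *Fdps* and 25.3% for *Idi1*.

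Promoter sequences are shown for *Hmgcs1*, called higher in *Sirt6-/-* and not in *Atm-/-*, and *Nsdhl*, a sterol C4 enzyme described below that was called higher in both. That of *Ebp*, the sterol isomerase, called higher in *Atm-/-* and not in *Sirt6-/-*, is also shown. Each is 1 example and does not stand for other genes with the same calls. *Insig1*, *Mvk*, *Dhcr7* and *Fads2* had the calls of *Hmgcs1* without a match to TCACNCCAC in their windows. Other forms of the sterol regulatory element, and bases outside the windows, were not searched. Each window runs from 250 bases before to 50 bases after the RefSeq start on GRCm38.p6, read 5′ to 3′ on the gene's strand, at chr13:119690101-119690400 (plus), chrX:72918271-72918570 (plus) and chrX:8193463-8193762 (minus). Capitals mark a sterol regulatory element (TCACNCCAC) or an NF-Y box (CCAAT) on either strand, the boxes bound by SREBP and by its usual partner NF-Y.
Hmgcs1: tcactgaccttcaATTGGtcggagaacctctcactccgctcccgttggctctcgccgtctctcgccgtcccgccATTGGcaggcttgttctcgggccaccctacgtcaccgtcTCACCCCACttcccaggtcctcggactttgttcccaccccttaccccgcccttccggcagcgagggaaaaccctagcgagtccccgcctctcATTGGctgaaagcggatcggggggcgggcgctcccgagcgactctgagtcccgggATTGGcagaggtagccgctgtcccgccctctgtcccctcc
Nsdhl: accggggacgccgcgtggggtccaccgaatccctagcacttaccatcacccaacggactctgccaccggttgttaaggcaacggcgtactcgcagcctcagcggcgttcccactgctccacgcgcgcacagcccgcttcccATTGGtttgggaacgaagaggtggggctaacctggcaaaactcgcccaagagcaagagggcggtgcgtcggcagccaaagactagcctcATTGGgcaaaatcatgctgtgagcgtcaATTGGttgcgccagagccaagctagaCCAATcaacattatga
Ebp: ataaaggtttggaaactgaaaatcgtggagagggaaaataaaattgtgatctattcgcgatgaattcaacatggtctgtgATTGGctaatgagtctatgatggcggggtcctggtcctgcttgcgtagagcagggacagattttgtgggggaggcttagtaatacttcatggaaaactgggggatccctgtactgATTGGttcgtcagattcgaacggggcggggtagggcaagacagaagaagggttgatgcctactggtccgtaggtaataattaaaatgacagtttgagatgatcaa
The *Hmgcs1* window held 1 TCACNCCAC match, starting 137 bases before the start, and 4 CCAAT boxes, that of *Nsdhl* held 4 CCAAT boxes and that of *Ebp* 2. RefSeq windows were found for 24 of the 31 genes, and not for *Fdps*, *Fdft1*, *Sqle*, *Stard4*, *Scd1*, *Scd2* and *Fads1*. CCAAT was in the windows of 19 of 24 (79.2%), against 41.1% of 27025 genes with a window, and TCACNCCAC in 1 of 24 (4.17%, *Hmgcs1*) against 1.44%. The E-box CACGTG was in 5 (20.8%, against 8.09%) and the GC box GGGCGG in 20 (83.3%, against 38.2%), all searched on both strands. The 5 genes whose windows held no CCAAT were called lower in both knockouts (*Scap*), higher in both (*Acat2*, *Acaca*, *Elovl6*) or higher in *Sirt6-/-* and not in *Atm-/-* (*Fads2*). The only *Acaca* window, chr11:84195188-84195487, lies inside the gene, which starts at 84129672 on the plus strand, so that start was not covered. The only *Tm7sf2* window, chr19:6067801-6068100, also lies inside its gene, which starts at 6068373 on the minus strand. A match is a match of letters only.

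The 3 genes from squalene to lanosterol were all upregulated in *Sirt6-/-*, 2 of them at least 2-fold, with a median log2 fold change of 1.17, and 1 of 3 was upregulated in *Atm-/-*. *Fdft1*, squalene synthase and the first step given over to sterols, had 95.7, 92.0 and 97.1 CPM in WT, 104, 101 and 96.8 in *Atm-/-* and 214, 209 and 219 in *Sirt6-/-*. The *Sirt6-/-* samples were all above the rest (log2 fold change 1.17 ± 0.047 (SE), edgeR adjusted p = 8.89e-12), and *Atm-/-* overlapped WT (log2 fold change 0.078 ± 0.051 (SE), edgeR adjusted p = 0.189). Of its 50-base stretches, 26.5% were shared with another gene, mostly *Ctsb* on the opposite strand. *Lss*, which closes the ring to lanosterol, had 76.1, 74.4 and 79.6 CPM in WT, 91.1, 95.4 and 96.0 in *Atm-/-* and 186, 171 and 177 in *Sirt6-/-*. It formed 3 separate levels, with log2 fold changes of 0.29 ± 0.052 and 1.22 ± 0.051 (SE). *Sqle*, squalene epoxidase, was the highest of the 3 per length of transcript in WT and moved least, from 223 ± 13.7 CPM in WT to 354 ± 12.8 in *Sirt6-/-* (log2 fold change 0.67 ± 0.052 (SE), edgeR adjusted p = 2.14e-08). Its *Atm-/-* mean of 209 ± 11.1 CPM did not pass the test (log2 fold change -0.098 ± 0.055 (SE), edgeR adjusted p = 0.124) but did without WT replicate 2 (log2 fold change -0.14, edgeR adjusted p = 0.0207).

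The 8 genes after lanosterol were called in one direction in *Sirt6-/-* and in both in *Atm-/-*. In *Sirt6-/-*, 7 were upregulated, 3 of them at least 2-fold, and in *Atm-/-* 5 were upregulated and 2 downregulated. *Tm7sf2* (GRCm38 chr19:6062821-6068373, minus strand), a sterol C14 reductase, showed the largest change of the 31. It had 1.85, 2.08 and 2.83 CPM in WT, 4.50, 4.94 and 4.43 in *Atm-/-* and 22.8, 30.0 and 26.7 in *Sirt6-/-*, 11.8-fold higher in *Sirt6-/-* (log2 fold change 3.56 ± 0.16 (SE), edgeR adjusted p = 3.26e-11) and 2.04-fold higher in *Atm-/-* (log2 fold change 1.03 ± 0.21 (SE), edgeR adjusted p = 4.59e-04). It was also the lowest gene of the set and the most variable in WT, with a coefficient of variation of 22.7% where the median gene had 4.42%, and without WT replicate 1, WT replicate 2 or *Atm-/-* replicate 2 only 1 gene of the set was at least 2-fold higher in *Atm-/-*. Its exons overlap those of *Vps51* on the same strand over 12.1% of their length.

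*Nsdhl* (GRCm38 chrX:72918557-72958514, plus strand), which decarboxylates the sterol at C4, had 24.3, 23.7 and 24.0 CPM in WT, 62.7, 59.4 and 59.7 in *Atm-/-* and 92.8, 92.3 and 101 in *Sirt6-/-*. The WT samples lay close together, and both knockouts were well above them, 2.51-fold (log2 fold change 1.33 ± 0.064 (SE), edgeR adjusted p = 1.52e-10) and 3.98-fold (log2 fold change 1.99 ± 0.062 (SE), edgeR adjusted p = 5.55e-13). *Msmo1*, the C4 methyl oxidase of the same step, had 141, 146 and 159 CPM in WT, 187, 179 and 168 in *Atm-/-* and 329.8, 315 and 331 in *Sirt6-/-*. Its rise was slight in *Atm-/-* (log2 fold change 0.25 ± 0.056, SE) and past 2-fold in *Sirt6-/-* (1.13 ± 0.053).

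A pair of late enzymes was called in opposite directions. *Sc5d*, the C5 desaturase near the end of the route, had 112, 104 and 106 CPM in WT, 67.6, 59.8 and 64.4 in *Atm-/-* and 133, 137 and 132 in *Sirt6-/-*. The *Atm-/-* samples lay below all WT samples (log2 fold change -0.75 ± 0.059 (SE), edgeR adjusted p = 3.31e-08) and the *Sirt6-/-* samples above them (log2 fold change 0.33 ± 0.048 (SE), edgeR adjusted p = 2.27e-05). *Hsd17b7*, the 3-keto reductase of C4 demethylation, had 47.9, 46.5 and 53.3 CPM in WT, 41.4, 39.5 and 41.2 in *Atm-/-* and 79.8, 73.8 and 69.1 in *Sirt6-/-*, with log2 fold changes of -0.28 ± 0.069 and 0.59 ± 0.071 (SE). Its call for lower in *Atm-/-* was lost with library totals (edgeR adjusted p = 0.145), that of *Sc5d* was not.

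*Ebp* differed in another way, with 42.6 ± 1.07 CPM in WT, 54.7 ± 5.77 in *Atm-/-* (log2 fold change 0.35 ± 0.076 (SE), edgeR adjusted p = 8.04e-04) and 38.9 ± 2.59 in *Sirt6-/-* (log2 fold change -0.13 ± 0.069 (SE), edgeR adjusted p = 0.103), lower in *Sirt6-/-* than in *Atm-/-* (log2 fold change -0.50 ± 0.074 (SE), edgeR adjusted p = 3.96e-06). *Cyp51*, the C14 demethylase, went from 207 ± 11.2 CPM in WT to 335 ± 11.6 in *Sirt6-/-* (log2 fold change 0.70 ± 0.050 (SE), edgeR adjusted p = 8.91e-09), and its small *Atm-/-* difference (log2 fold change 0.13 ± 0.050 (SE), edgeR adjusted p = 0.0363) was lost without WT replicate 1, WT replicate 2 or *Atm-/-* replicate 1 (edgeR adjusted p = 0.0907 and 0.0926 without those WT samples). *Dhcr7*, which completes the Kandutsch-Russell arm, rose from 33.1 ± 3.20 to 47.5 ± 2.28 CPM in *Sirt6-/-* (log2 fold change 0.52 ± 0.078 (SE), edgeR adjusted p = 2.51e-05) and did not pass the test in *Atm-/-* (log2 fold change -0.057 ± 0.083 (SE), edgeR adjusted p = 0.562). The sterol carrier *Stard4* had 65.4 ± 3.93 CPM in WT, 70.2 ± 0.831 in *Atm-/-* (edgeR adjusted p = 0.165) and 95.7 ± 9.08 in *Sirt6-/-* (log2 fold change 0.55 ± 0.070 (SE), edgeR adjusted p = 5.18e-06).

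Both genes of fatty acid synthesis itself were upregulated in both knockouts. *Fasn*, fatty acid synthase, went from 437 ± 10.7 CPM in WT to 680.0 ± 15.2 in *Atm-/-* and 820.0 ± 28.1 in *Sirt6-/-* (log2 fold changes 0.63 ± 0.041 and 0.91 ± 0.044, SE). *Acaca*, acetyl-CoA carboxylase, which makes malonyl-CoA, went from 146 ± 4.21 to 173 ± 7.31 and 191 ± 9.74 CPM (log2 fold changes 0.23 ± 0.048 and 0.39 ± 0.050). Both genes were under 2-fold in each knockout, and 30.4% of the 50-base stretches of *Acaca* were shared with another gene.

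The 5 genes of elongation and desaturation separated the knockouts more sharply: all 5 were upregulated in *Sirt6-/-*, 4 of them at least 2-fold, and in *Atm-/-* only *Elovl6* passed the test. *Elovl6*, which lengthens palmitate to stearate, had 63.0, 58.4 and 63.9 CPM in WT, 97.0, 92.8 and 88.3 in *Atm-/-* and 203, 203 and 207 in *Sirt6-/-*. It formed 3 levels, 1.49-fold above WT in *Atm-/-* (log2 fold change 0.58 ± 0.059 (SE), edgeR adjusted p = 6.11e-07) and 3.31-fold in *Sirt6-/-* (log2 fold change 1.73 ± 0.050 (SE), edgeR adjusted p = 2.68e-13). *Scd2*, a stearoyl-CoA desaturase, had 1158, 1045 and 1199 CPM in WT, 1192, 1107 and 1022 in *Atm-/-* and 2820.2, 2639 and 2810.3 in *Sirt6-/-*. Here *Atm-/-* and WT overlapped (log2 fold change -0.042 ± 0.059 (SE), edgeR adjusted p = 0.548), and *Sirt6-/-* was 2.43-fold higher (log2 fold change 1.28 ± 0.053 (SE), edgeR adjusted p = 1.46e-11).

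*Fads1*, the delta-5 desaturase of polyunsaturated fatty acids, had 198, 198 and 194 CPM in WT, 207, 201 and 202 in *Atm-/-* and 471, 452 and 482 in *Sirt6-/-*. *Fads2*, the delta-6 desaturase, had 96.9, 90.6 and 89.2 CPM in WT, 103, 91.8 and 89.6 in *Atm-/-* and 284, 243 and 264 in *Sirt6-/-*. Both were far above WT in *Sirt6-/-* (log2 fold changes 1.26 ± 0.044 and 1.52 ± 0.060, SE) and did not pass the test in *Atm-/-* (0.043 ± 0.042 and 0.031 ± 0.061). *Scd1* rose less, from 228 ± 7.61 to 372 ± 8.15 CPM (log2 fold change 0.71 ± 0.045 (SE), edgeR adjusted p = 2.13e-09). Adipocyte markers were low throughout. The 7 on the list summed to 4.80 to 6.71 CPM in WT, 17.0 to 21.2 in *Atm-/-* and 15.1 to 19.6 in *Sirt6-/-*, with *Plin1*, *Cidec* and *Cfd* at 0 counts in all 9 samples and *Adipoq* and *Lep* at 0 in both knockouts. The 2 that could be tested rose in both knockouts. *Pparg*, the adipogenic receptor, had 0.0627, 0.128 and 0.127 CPM in WT, 4.50, 4.14 and 5.20 in *Atm-/-* and 1.32, 1.08 and 1.08 in *Sirt6-/-* (edgeR adjusted p = 3.52e-09 and 1.60e-05), and no fold is given because the WT values are near the level of 3 counts. *Fabp4*, a fatty acid carrier, went from 5.64 ± 0.990 CPM in WT to 14.9 ± 2.25 in *Atm-/-* and 15.7 ± 2.47 in *Sirt6-/-* (log2 fold changes 1.40 ± 0.15 and 1.48 ± 0.15, SE). Their part in the results above was not tested.

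Set against each other directly, without the WT samples, the knockouts differed in all 31 genes: 28 were higher and 3 (*Srebf1*, *Scap*, *Ebp*) lower in *Sirt6-/-* than in *Atm-/-*. Of 13460 genes tested, 75.8% were called, 37.8% higher and 38.0% lower. At least 2-fold higher were 14 of the 31, against 14.2% of all genes, and 0 at least 2-fold lower, against 11.3%, with a median log2 fold change of 0.91 for the 31. The widest gaps were those of *Tm7sf2* (log2 fold change 2.51 ± 0.12, SE), *Hmgcs1* (1.86 ± 0.049), *Fdps* (1.55 ± 0.042) and *Mvd* (1.54 ± 0.057). *Sc5d*, only slightly raised against WT, also passed 2-fold here (1.06 ± 0.051). The gap was narrow for *Fasn* (0.26 ± 0.036) and *Acaca* (0.14 ± 0.046), and the call of *Acaca* was lost without *Sirt6-/-* replicate 1 or *Atm-/-* replicate 2 (edgeR adjusted p = 0.0872 and 0.0678).

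Levels between genes were compared on the deposited RPKM, which divide by transcript length. In WT, *Scd2* was the highest at 196 ± 14.1 RPKM, followed by *Fdps* (87.6 ± 1.40), *Msmo1* (76.8 ± 5.14) and *Sqle* (76.4 ± 4.88), the last pair within each other's spread. The lowest were *Nsdhl* (10.2 ± 0.127), *Hsd17b7* (10.1 ± 0.769) and *Elovl6* (9.79 ± 0.485), which also did not separate, and then *Tm7sf2* (1.44 ± 0.329). In *Sirt6-/-*, *Scd2* (507 ± 18.9 RPKM) and *Fdps* (314 ± 5.91) kept the first places, and *Hmgcs1* (164 ± 6.86) and *Idi1* (157 ± 3.10) stood far above *Fasn* (82.7 ± 3.19), which they were close to in WT (42.1 ± 3.03, 38.5 ± 2.32 and 41.5 ± 1.01).

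**Figure D3:**
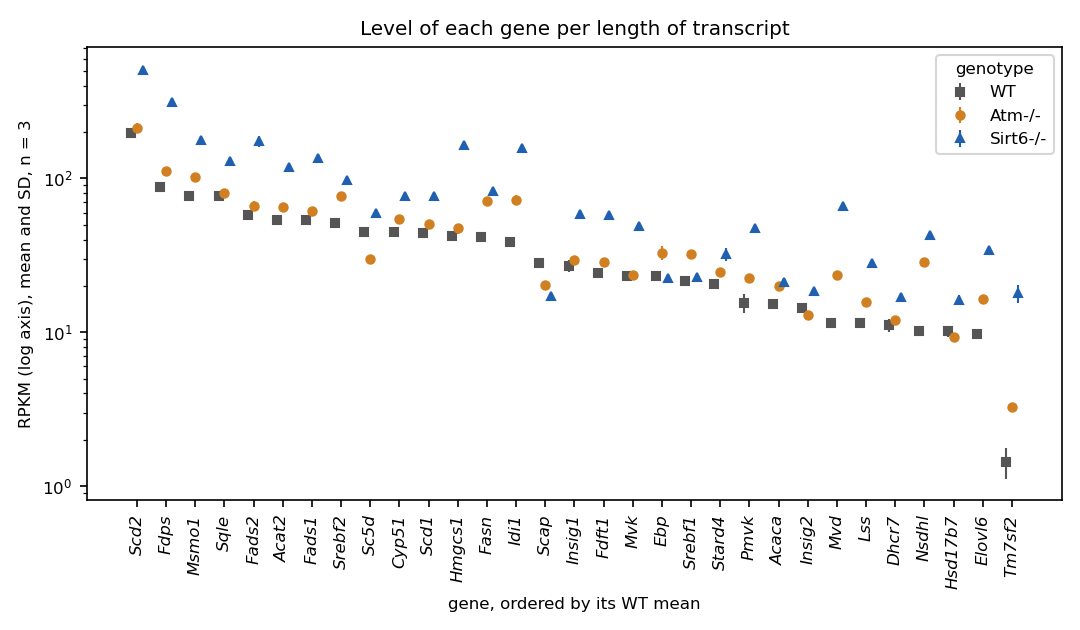
RPKM of the 31 genes on a log axis, mean and SD of 3 samples for WT (squares), *Atm-/-* (circles) and *Sirt6-/-* (triangles), ordered by the WT mean. *Scd2* is first in all 3 genotypes, *Tm7sf2* is last in WT and *Atm-/-*, and most triangles lie above the other symbols.

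Within paralog pairs, the share of the summed RPKM does not depend on scaling between libraries. *Scd2* made up 81.3, 80.6 and 82.6% of *Scd1* plus *Scd2* in the WT samples, 81.5, 80.3 and 80.6% in *Atm-/-* and 86.8, 86.6 and 87.0% in *Sirt6-/-*. The *Sirt6-/-* samples lay above the other 6, which overlapped. *Insig1* made up 63.4, 65.7 and 66.8% of the INSIG pair in WT, 70.6, 68.0 and 69.8% in *Atm-/-* and 75.2, 75.5 and 77.3% in *Sirt6-/-*, without overlap between genotypes. These shares are descriptions and were not tested.

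**Figure D4:**
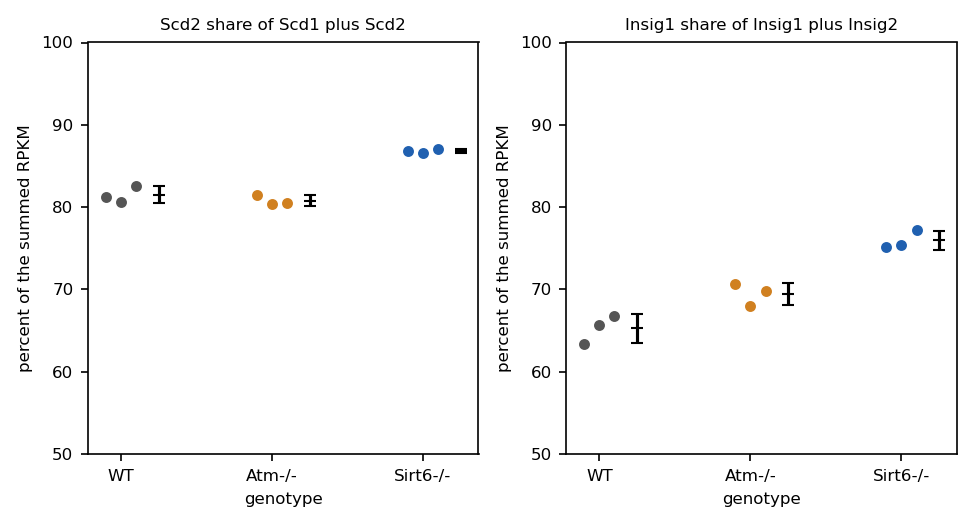
Share of *Scd2* in *Scd1* plus *Scd2* (left) and of *Insig1* in *Insig1* plus *Insig2* (right), in percent of summed RPKM, one point a sample with mean and SD beside it, on an axis from 50 to 100. The *Sirt6-/-* points are the highest in both panels.

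Of 36 further genes around the route, listed by role, 35 were tested. In *Sirt6-/-*, 21 were upregulated and 9 downregulated, where 39.2% and 37.4% of all genes were, and in *Atm-/-* 10 were upregulated and 14 downregulated, where 34.7% and 33.6% of all genes were, with median log2 fold changes of 0.27 and -0.04. Other synthesis genes (13) were 8 higher and 2 lower in *Sirt6-/-*, 4 of them at least 2-fold higher, and 4 higher and 6 lower in *Atm-/-*. The 7 genes of the branches from farnesyl diphosphate, which make dolichol, ubiquinone and prenylated proteins, were 4 higher and 3 lower in *Sirt6-/-* and 2 higher and 2 lower in *Atm-/-*, none 2-fold against WT.

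Of 7 tested genes for the SREBP proteases and the LXR axis, which answers high sterol, 4 were higher and 3 lower in *Sirt6-/-*, and 0 higher and 3 lower in *Atm-/-*. *Mbtps1*, the site-1 protease that cuts SREBP, had 188, 186 and 183 CPM in WT, 183, 189.7 and 187 in *Atm-/-* and 372, 378 and 368 in *Sirt6-/-*. It rose in *Sirt6-/-* (log2 fold change 1.01 ± 0.043 (SE), edgeR adjusted p = 1.92e-11) and was level with WT in *Atm-/-* (log2 fold change -0.0011 ± 0.043 (SE), edgeR adjusted p = 0.984). *Mbtps2*, the site-2 protease that makes the second cut, had 74.1, 79.2 and 75.2 CPM in WT, 60.3, 56.5 and 55.4 in *Atm-/-* and 49.0, 48.0 and 47.7 in *Sirt6-/-* and was downregulated in both (log2 fold changes -0.42 ± 0.058 and -0.66 ± 0.056, SE). It was under 2-fold and is named after its values were seen. *Mylip*, an LXR target that marks lipoprotein receptors for degradation, had 5.52, 4.80 and 3.68 CPM in WT, 6.17, 6.57 and 4.49 in *Atm-/-* and 33.1, 28.6 and 35.5 in *Sirt6-/-*. Only its *Sirt6-/-* samples were apart (log2 fold change 2.80 ± 0.13 (SE), edgeR adjusted p = 8.33e-11). *Abca1*, the LXR-driven cholesterol exporter, had 28.8, 25.2 and 27.7 CPM in WT, 2.42, 2.40 and 1.92 in *Atm-/-* and 14.1, 13.9 and 16.4 in *Sirt6-/-*. It fell in *Atm-/-* (log2 fold change -3.60 ± 0.13 (SE), edgeR adjusted p = 4.48e-12) and in *Sirt6-/-* (log2 fold change -0.88 ± 0.094 (SE), edgeR adjusted p = 7.91e-07), and the *Atm-/-* samples lay below the *Sirt6-/-* ones (log2 fold change 2.71 ± 0.15 (SE), edgeR adjusted p = 5.46e-13 for *Sirt6-/-* over *Atm-/-*). *Nr1h3*, which encodes LXR alpha, was near the detection limit with 0.847, 0.927 and 0.857 CPM in WT, 1.13, 0.599 and 0.561 in *Atm-/-* and 0.153, 0.309 and 0.360 in *Sirt6-/-*, and was lower in *Sirt6-/-* (log2 fold change -1.66 ± 0.44 (SE), edgeR adjusted p = 0.00337).

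Of 8 genes for sterol uptake, lysosomal release and esterification, 5 were higher and 1 lower in *Sirt6-/-*, and 4 higher and 3 lower in *Atm-/-*. *Lipa*, the lysosomal acid lipase that frees cholesterol from its esters, had 34.2, 38.6 and 39.7 CPM in WT, 43.8, 49.8 and 45.8 in *Atm-/-* and 156, 164 and 165 in *Sirt6-/-*, and its *Sirt6-/-* samples were 4.31-fold above WT (log2 fold change 2.11 ± 0.061 (SE), edgeR adjusted p = 2.70e-13). *Scarb1*, the HDL receptor, had 72.6, 71.9 and 67.7 CPM in WT, 68.8, 66.1 and 72.8 in *Atm-/-* and 151, 154 and 149 in *Sirt6-/-*, and also rose in *Sirt6-/-* (log2 fold change 1.10 ± 0.050 (SE), edgeR adjusted p = 3.98e-11). *Soat1*, which esterifies cholesterol for storage, had 123, 153 and 119 CPM in WT, 169, 172 and 166 in *Atm-/-* and 56.8, 68.3 and 55.8 in *Sirt6-/-*. It went up in *Atm-/-* (log2 fold change 0.35 ± 0.075 (SE), edgeR adjusted p = 7.67e-04) and down in *Sirt6-/-* (log2 fold change -1.13 ± 0.094 (SE), edgeR adjusted p = 4.56e-08).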

How the data were processed

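RNA-Seq libraries were oligo(dT)-selected, per the labels. The authors deposited read counts per gene (whole numbers, not normalized) and RPKM made from these counts and a listed transcript length. Submitters' processing notes name mm10, and the aligner, counter and strand setting are not given in the sources used here. Each pair of genotypes was fitted on all genes of the count table with edgeR 4.0.16 in R 4.3.3 (filterByExpr, TMM, glmQLFit with a prior count of 0.125, glmQLFTest, Benjamini-Hochberg adjusted p under 0.05), once more requiring a 2-fold change. Printed CPM use TMM factors over all 9 samples. RPKM served only for levels between genes and paralog shares. The procedure was tested on simulated counts with one set spread between samples. In each comparison, edgeR recovered 100 of 100 genes given a log2 change of 1. Of 100 genes given 0.5, it recovered 62 in *Atm-/-* against WT, 80 in *Sirt6-/-* against WT and 64 between the knockouts. Alternatives were other scalings, no filter, one fit of all samples, a replicate block, the DESeq2 1.42.0 Wald test and leaving out each sample. The genes and lists were chosen with earlier results of these data known. Values per sample are given for those of the 31 genes at least 2-fold changed against WT or called in opposite directions. Other pathway genes are given as counts, with values for those at least 2-fold changed against WT. Values of the other synthesis genes are not reported here. Positions are from GENCODE M21 and promoters from RefSeq (GRCm38.p6). Replicate numbers did not pair the samples.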

Additional observations from a re-analysis of the deposited data

How the results depend on the processing

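Of 93 log2 fold changes (31 genes in 3 comparisons), all kept their direction and their side of the threshold with DESeq2 size factors, with all 9 samples in one fit and with the DESeq2 Wald test. With library totals in place of TMM, the genes downregulated in *Atm-/-* numbered 2, the median log2 fold change was 0.28 in *Atm-/-* and 1.13 in *Sirt6-/-*, and *Insig1* (0.13), *Mvk* (0.015), *Sqle* (0.065), *Dhcr7* (0.11), *Scd2* (0.12) in *Atm-/-* and *Srebf1* (0.087) in *Sirt6-/-* changed sign, none of them called. *Hmgcs1*, *Fdft1*, *Stard4*, *Scd1*, *Fads1* and *Fads2* then became calls for higher in *Atm-/-*, and *Acaca* was no longer called between the knockouts (edgeR adjusted p = 0.134). Library totals shift every gene of a comparison by one amount, which is the source of these changes. Without the filter on low counts, *Acat2* was no longer called in *Atm-/-* (edgeR adjusted p = 0.0622).

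Leaving out one sample each gave 14 to 16 genes upregulated in *Atm-/-*, 4 to 6 downregulated and 1 to 2 at least 2-fold higher, with medians of 0.09 to 0.15. For *Sirt6-/-* against WT it gave 28 upregulated, 15 to 17 at least 2-fold higher and medians of 0.99 to 1.05, and between the knockouts 27 to 28, 14 and 0.88 to 0.92. Signs changed, without a call, within these ranges of the log2 fold change: in *Atm-/-*, *Insig1* -0.068 to 0.041, *Hmgcs1* -0.045 to 0.071, *Dhcr7* -0.13 to 0.012, *Scd2* -0.099 to 0.021 and *Fads2* -0.022 to 0.077, and in *Sirt6-/-*, *Srebf1* -0.048 to 0.012. The cause was not tested.

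With a replicate block, 14 genes were upregulated and 4 downregulated in *Atm-/-*, *Acat2* (edgeR adjusted p = 0.0632) and *Cyp51* (0.0503) being lost, and no other call of the 31 genes changed. Correlations of same-numbered samples were -0.06 to 0.12, so the numbers were not taken as pairs. Shares taken on counts, without length correction, were 83.2, 82.6 and 88.1% for *Scd2* in WT, *Atm-/-* and *Sirt6-/-*, and 71.0 and 77.3% for *Insig1* in *Atm-/-* and *Sirt6-/-*. With 3 samples a genotype, small differences may have been missed.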
